A study of Rattus norvegicus with 6 samples.

Results

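The structural myelin protein genes described here are the 9 genes Cnp, Mbp, Mag, Cldn11, Mobp, Mal, Ermn, Opalin and Mog. They were taken by name from the 32883 genes of the deposited count table, and all 9 were among the 14670 genes that passed the filter on low counts. RNA-seq was performed on primary cultured oligodendrocyte precursor cells (OPCs) from the cerebral cortex of newborn Sprague Dawley rats, grown first as a mixed culture in serum and then shaken off and replated in serum-free Neurobasal with B27 and N2. The labels name no genetic change in either group, and the cultures received either DMSO, the solvent, or 5 µM of the RIPK1 kinase inhibitor ZJU-37 for 36 h according to the sample labels, whereas the methods of the study give a shorter time. Each group had 3 libraries, and because the sources call the replicates both biological repeats and plate wells, the p-values measure the spread between these libraries only. Library totals were between 13935865 and 24097927 counts, so a gene with 3 counts in a library lies between 0.124 and 0.215 CPM (CPM being counts scaled to a common library size by the trimmed mean of M-values, TMM), a limit that covers counting error only.

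Myelin is the stack of membrane that oligodendrocytes wrap around axons. Its compact part is held together by proteins such as MBP, which joins the cytoplasmic faces of the membrane, and MOBP, a smaller basic protein. CNP, an enzyme that keeps cytoplasmic channels open, and MAG, an adhesion protein of the inner layer facing the axon, belong to its non-compact part, and claudin 11 forms the tight junctions between its layers. MAL is a membrane raft proteolipid, ermin a cytoskeletal protein of late oligodendrocytes, opalin a transmembrane protein of the paranodal loops, and MOG a glycoprotein of the outermost layer. Cnp and Mbp are switched on early in differentiation, and Mog, Mobp, Opalin and Ermn are known as genes of more mature cells.

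The cultures expressed the markers of OPCs. Pdgfra, the receptor for platelet-derived growth factor, had a mean of 394 CPM with DMSO and 843 CPM with ZJU-37, and Cspg4, the NG2 proteoglycan, had 166 and 341 CPM. Of the 9 OPC markers found, 2 fell (Sox10 and Vcan) and 5 rose, Pdgfra and Cspg4 included, at an adjusted p-value under 0.05 in edgeR's quasi-likelihood test of ZJU-37 against DMSO. Of all tested genes, 5.58% fell and 9.43% rose in this test. The genes of myelin were present in the same libraries. On the scale of CPM per kilobase of gene length, Mbp ranked 13 of the 14670 tested genes with DMSO (2405 ± 928, SD, n = 3) and 29 with ZJU-37 (1176 ± 449, n = 3). Cnp ranked 30 with DMSO and 121 with ZJU-37, with levels of 1236 ± 230 and 481 ± 81.7 CPM per kb (SD, n = 3 each). Cldn11 and Mag followed at 266 ± 101 and 244 ± 96.8 CPM per kb with DMSO, 2 levels that did not differ beyond their spread. Mobp came next at 32 ± 19.7 CPM per kb, and Mog was at 7.25 ± 1.53. Mal (3.32 ± 2.85), Ermn (3.06 ± 1.77) and Opalin (0.597 ± 0.319 CPM per kb) were the least abundant, and the ranges of Mal and Ermn overlapped. Opalin ranked 13768 with DMSO and had between 13 and 33 counts in a library, so that its values carry the most counting error.

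Between ZJU-37 and DMSO, 1 of the 9 genes fell and 0 rose at an adjusted p-value under 0.05 in edgeR's quasi-likelihood test, or 11.1% of the members, where 5.58% of all tested genes fell and 9.43% rose. That gene was Cnp. At an unadjusted p-value under 0.05 there were 4 members, namely Cnp, Cldn11, Mbp and Mag, all lower, where 12.5% of all tested genes were lower at this level. The median log2 fold change of the 9 genes was -0.93, against -0.03 over all tested genes. This median of the members depended on single libraries, at -0.26 without DMSO replicate 1 and -0.47 without ZJU-37 replicate 3. For 8 of the 9 genes the fitted value was below 0, as for 54% of all tested genes. In 7 of the 9 the CPM was lower with ZJU-37 in each of the 3 pairs of same-numbered libraries, as in 33.3% of all tested genes. The labels do not say that the cultures were paired, and same-numbered libraries were taken as pairs (the check stands with the methods). With the replicate number as a block in the same edgeR test, 4 of the 9 genes fell and 0 rose, which is 44.4% of the members, where 15.9% of all tested genes fell and 16.2% rose. In these bulk libraries, fewer cells that express a gene and less RNA of it per cell cannot be told apart.

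**Figure D1:**
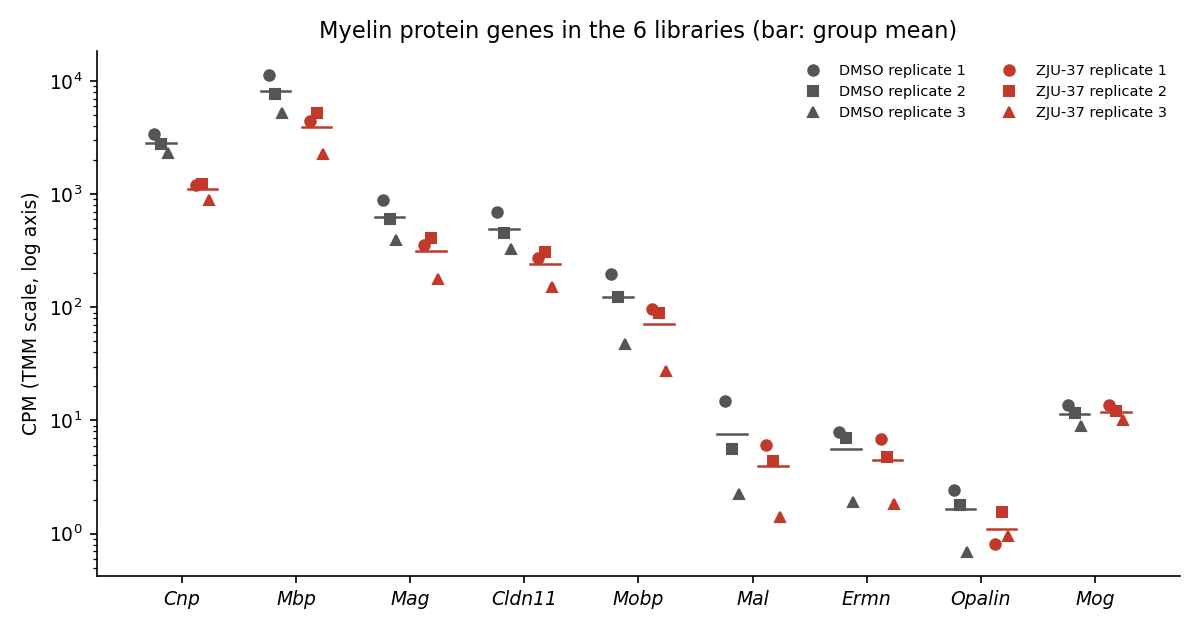
CPM on a log axis for each gene in each library, with DMSO in grey, ZJU-37 in red, a symbol for each replicate number and a bar for the group mean. The symbols of Cnp separate by treatment, replicate 3 is lowest in both groups for 7 of the other genes and lies between the others only for Opalin with ZJU-37, and the Mog groups lie on the same level.

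Cnp lies on chromosome 10 from 88490798 to 88497356 on the plus strand in the table, whose genome build is not given in the sources used here. Its CPM was 3395, 2804 and 2337 in the DMSO libraries and 1208, 1224 and 891 in the ZJU-37 libraries, in the order of replicates 1 to 3. Every ZJU-37 library was below every DMSO library, and the lowest DMSO value was still well above the highest ZJU-37 value. The level with ZJU-37 was 0.389 of that with DMSO (95% interval 0.289 to 0.525), which is -1.36 on the log2 scale (standard error, SE, 0.18, adjusted p = 0.00362 from edgeR, and 8.90e-07 with the replicate block). Pair by pair, the log2 difference was -1.49 for replicate 1, -1.20 for replicate 2 and -1.39 for replicate 3, close to one another. In the 6 fits that each dropped 1 library, the value ranged from -1.48 to -1.20 on the log2 scale, with an adjusted p-value of at most 0.0182. Of the 9 genes, Cnp alone passed the threshold in all of these 6 fits.

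Mbp, Mag and Cldn11 had fitted values close to one another and smaller in size than that of Cnp. Mbp, on chromosome 18 from 79326738 to 79437310 (plus strand), had 11422, 7694 and 5208 CPM with DMSO and 4411, 5203 and 2275 CPM with ZJU-37, in the order of replicates 1 to 3. The groups did not overlap, but DMSO replicate 3 and ZJU-37 replicate 2 nearly touched. The log2 fold change was -1.03 (SE 0.39, 95% interval -1.96 to -0.10, adjusted p = 0.136 from edgeR) and -1.04 once the replicate block was included (SE 0.21, adjusted p = 0.0527). The counts of Mbp are for the whole gene, so that transcripts of classic MBP and of the longer golli forms are not separated.

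Mag, on chromosome 1 from 89345429 to 89360733 (minus strand), had 890, 603 and 393 CPM with DMSO and 358, 409 and 177 CPM with ZJU-37 in replicates 1, 2 and 3. Here ZJU-37 replicate 2 was just above DMSO replicate 3, so the groups overlapped. The log2 fold change of Mag was -1.0 (SE 0.39, adjusted p = 0.154 from edgeR), and with the replicate block it was -1.01 and passed the threshold (SE 0.19, adjusted p = 0.0399). Cldn11, on chromosome 2 from 115823538 to 115836846 (minus strand), had 696, 452 and 330 CPM with DMSO and 270, 309 and 152 CPM with ZJU-37 in the same order. Its groups did not overlap, and its log2 fold change was -1.02 (SE 0.35, adjusted p = 0.113 from edgeR, and 0.0517 with the replicate block). Together with Cnp and Mbp this made 3 genes, or 33.3% of the members, with all ZJU-37 libraries below all DMSO libraries, a pattern seen in 16.2% of all tested genes. For a single gene, an exact permutation test of 3 libraries against 3 cannot go below p = 0.1 (two-sided), which is the value for each of these 3 genes.

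In all 3 of Mbp, Mag and Cldn11 the pair of replicate 2 differed least. The log2 difference of Mbp was -1.37, -0.56 and -1.19 in the pairs of replicate 1, 2 and 3, that of Mag was -1.31, -0.56 and -1.16, and that of Cldn11 was -1.36, -0.55 and -1.12. Without the pair of replicate 2, the fit with the block gave adjusted p-values of 1.58e-05 for Mbp and for Mag and 2.00e-05 for Cldn11 from edgeR. Without the pair of replicate 1 they were 0.318, 0.310 and 0.303, and without that of replicate 3 they were 0.0630, 0.0625 and 0.0913. The call of Mag was thus lost in both of these fits, and only 2 pairs stand behind each of these fits.

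**Figure D2:**
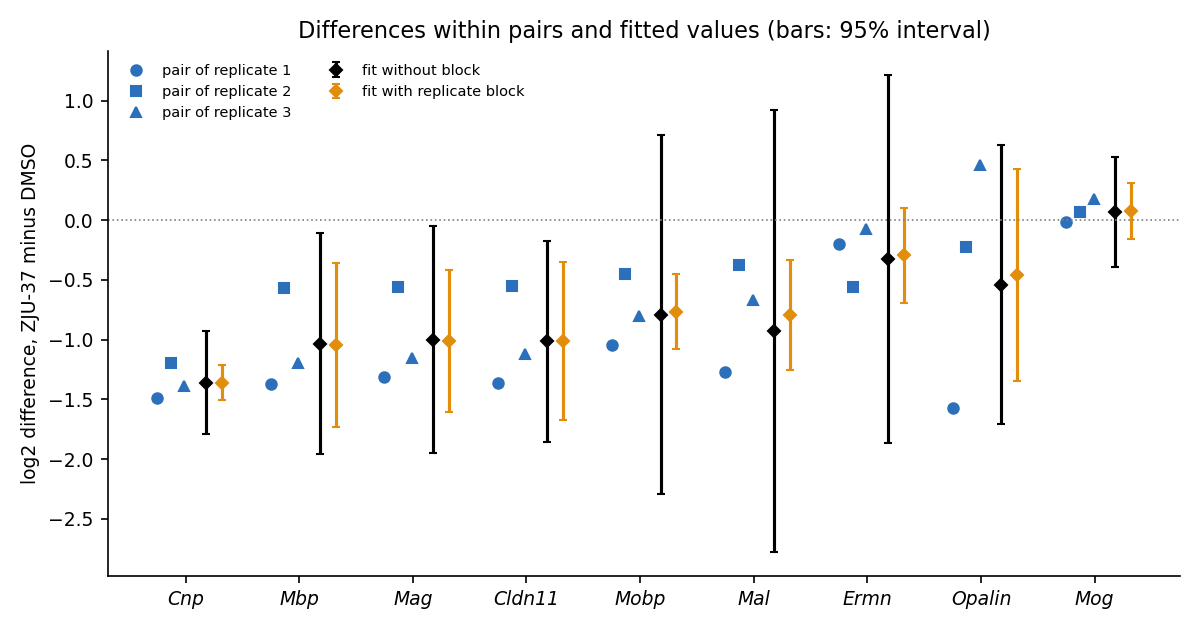
Log2 difference of ZJU-37 minus DMSO for each gene within the pairs of replicate 1, 2 and 3 (blue symbols), and the values fitted by edgeR without (black) and with (orange) the replicate block, with 95% intervals. The intervals of Cnp, Mbp, Mag and Cldn11 lie below 0 in both fits, those of Mobp and Mal only with the block, and those of Ermn, Opalin and Mog span 0.

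Mobp, Mal and Ermn varied more between replicate numbers than between treatments. Mobp, on chromosome 8 from 128824508 to 128850358 (plus strand), had 198, 123 and 47.4 CPM with DMSO and 95.9, 89.7 and 27.2 CPM with ZJU-37 in replicates 1, 2 and 3. Replicate 3 was far below the other libraries in both groups, and the groups overlapped. The log2 fold change of Mobp was -0.79 (SE 0.62, adjusted p = 0.478 from edgeR), whereas with the replicate block it was -0.77 and passed the threshold (SE 0.12, adjusted p = 0.00812). Without DMSO replicate 1 and without the block, it was -0.26.

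Mal, on chromosome 3 from 120209647 to 120233655 (minus strand), had 14.8, 5.65 and 2.23 CPM with DMSO and 6.11, 4.36 and 1.41 CPM with ZJU-37 in the same order. The value of DMSO replicate 1 was more than that of any other library, and without this library the log2 fold change was -0.00. Over all 6 libraries it was -0.93 (SE 0.77, adjusted p = 0.501 from edgeR), and with the block -0.79 (SE 0.20, adjusted p = 0.0160). The blocked call of Mal was lost without the pair of replicate 1 (edgeR adjusted p = 0.153) or of replicate 3 (0.0613).

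Ermn, on chromosome 3 from 44068057 to 44086022 (minus strand), had 7.96, 7.06 and 1.91 CPM with DMSO and 6.92, 4.80 and 1.82 CPM with ZJU-37. Both groups covered nearly the same range, and the log2 fold change was -0.32 (SE 0.64, edgeR adjusted p = 0.791, against 0.235 in the blocked fit). Without DMSO replicate 1 or without ZJU-37 replicate 3, the sign of the Ermn value turned, to 0.00 and 0.09. Opalin, on chromosome 1 from 260324028 to 260341723 (minus strand), had 33, 32 and 13 counts with DMSO and 15, 32 and 23 counts with ZJU-37. The groups overlapped, and the log2 value was -0.54 (SE 0.49, edgeR adjusted p = 0.540, against 0.412 in the blocked fit). Without DMSO replicate 1 the Opalin value was -0.17, and in the blocked fit without the pair of replicate 1 its sign turned, to 0.08.

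Mog was the 1 gene of the 9 with a fitted value above 0. It lies on chromosome 20 from 2004052 to 2014286 (plus strand), and had 13.7, 11.6 and 8.92 CPM with DMSO and 13.6, 12.2 and 10.1 CPM with ZJU-37 in replicates 1, 2 and 3. The groups lay on top of each other, with a fitted log2 value of 0.07 (SE 0.19, edgeR adjusted p = 0.857). The 95% interval for the level with ZJU-37 ran from 0.763 to 1.44 of that with DMSO, so that it did not reach the fitted value of Cnp, Mbp, Mag or Cldn11. The sign of the Mog value turned without DMSO replicate 3 (-0.09) or without ZJU-37 replicate 1 (-0.02). The span of Mog overlaps by 117 bases that of Zfp57, a zinc finger gene on the opposite strand, and whether reads were counted by strand is not stated. Zfp57 rose from 7.29 ± 0.489 to 10.9 ± 0.478 CPM (SD, n = 3 libraries each, log2 fold change 0.58, adjusted p = 0.0198 from edgeR), and its part in the Mog counts was not tested. Of the other 8 genes, Mbp overlaps a microRNA gene with 0 counts, and Ermn overlaps Galnt5, which had 3 counts in all 6 libraries together.

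The genes also shared much of their order over the replicate numbers. All 9 were highest in DMSO replicate 1 and lowest in DMSO replicate 3, and 8 of the 9 were lowest in ZJU-37 replicate 3, all but Opalin. The CPM of DMSO replicate 1 over that of DMSO replicate 3 was 6.62 for Mal, 4.18 for Mobp and 4.17 for Ermn, 2.26 for Mag, 2.19 for Mbp and 2.11 for Cldn11, but 1.45 for Cnp. Over the 13893 tested genes that averaged 1 CPM or more, this ratio had a median of 1.03 and a 95th percentile of 1.47. The replicate term of the fit with the block, which was examined after these values had been seen, passed an adjusted p-value of 0.05 in edgeR for Cnp, Mobp, Ermn and Mal, which is 44.4% of the members, where 15.5% of all tested genes passed. It did not pass for Mog (0.0536), Mag (0.131), Mbp (0.181), Cldn11 (0.200) and Opalin (0.341).

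The markers of other cells also differed between replicate numbers. Each list sum given here was lower with ZJU-37 than with DMSO in every pair of same-numbered libraries. The summed CPM of the 10 astrocyte markers was between 1047 and 1680 with DMSO and between 933 and 1394 with ZJU-37, and was highest in replicate 3 of both groups. One of these markers fell (Aldoc) and 1 rose (Sox9) in edgeR without the block, and 4 fell and 2 rose with it. The 10 microglia markers summed to between 2066 and 3536 CPM with DMSO and between 1495 and 3143 CPM with ZJU-37, lowest in replicate 1 of both groups, and 0 passed in edgeR without the block (3 fell with it). The 10 neuron markers summed to between 966 and 1362 CPM with DMSO and between 868 and 1293 CPM with ZJU-37, highest in replicate 1 of both groups, with 0 passing without the block and 3 lower with it. Fibroblast markers (5 genes) summed to at most 106 CPM, and endothelial and mural markers (6 genes) to at most 24.4 CPM, with Cldn5 at 0 in all libraries. Of the endothelial and mural markers only 2 were tested, and Pdgfrb is in both lists. In each list 0 tested genes passed without the block and 1 fell with it. Of all tested genes, 5.58% fell and 9.43% rose without the block, and 15.9% and 16.2% with it. The part of these cells in the myelin gene values was not tested.

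Within the libraries, Mbp, Mag and Cldn11 kept a nearly fixed proportion. The ratio of Mbp to Mag, in CPM per kb, was 9.80, 9.75 and 10.1 in DMSO replicates 1, 2 and 3 and 9.41, 9.71 and 9.84 in ZJU-37 replicates 1, 2 and 3, although the level of each gene changed severalfold between libraries. The ratio of Mbp to Cldn11 was 9.01 ± 0.334 with DMSO and 8.81 ± 0.514 with ZJU-37 (SD, n = 3 each). Both ratios overlapped between the groups. The ratios in this and the next paragraph were chosen after the values had been seen. An exact permutation test of their logarithms, which cannot go below p = 0.1, gave p = 0.3 for Mbp to Mag and p = 0.6 for Mbp to Cldn11. Across the 6 libraries, the log2 CPM of the 3 genes correlated with Pearson's r between 0.996 and 0.999 in the 3 gene pairs, a description over 6 libraries that share treatment and replicate number.

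The ratio of Cnp to Mog varied less within each group than between the groups. It was 169, 165 and 180 with DMSO and 60.8, 68.9 and 60.5 with ZJU-37 in replicates 1, 2 and 3 (171 ± 7.41 against 63.4 ± 4.79, SD, n = 3 each). The groups did not overlap. The ratio of Mag to Mog did not overlap either, with 32.8 ± 6.41 against 15.8 ± 4.94 (SD, n = 3 each). For both ratios the exact permutation test gave p = 0.1, its lowest possible value. The ratio of Mbp to Cnp was 1.90 ± 0.388 with DMSO and 2.38 ± 0.587 with ZJU-37 (SD, n = 3 each, exact permutation p = 0.3). Its groups overlapped, with the lowest values in replicate 3 of each group. With group means removed, Cnp and Mog correlated with r = 0.95 over the 6 libraries, against 0.12 with the means in place.

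**Figure D3:**
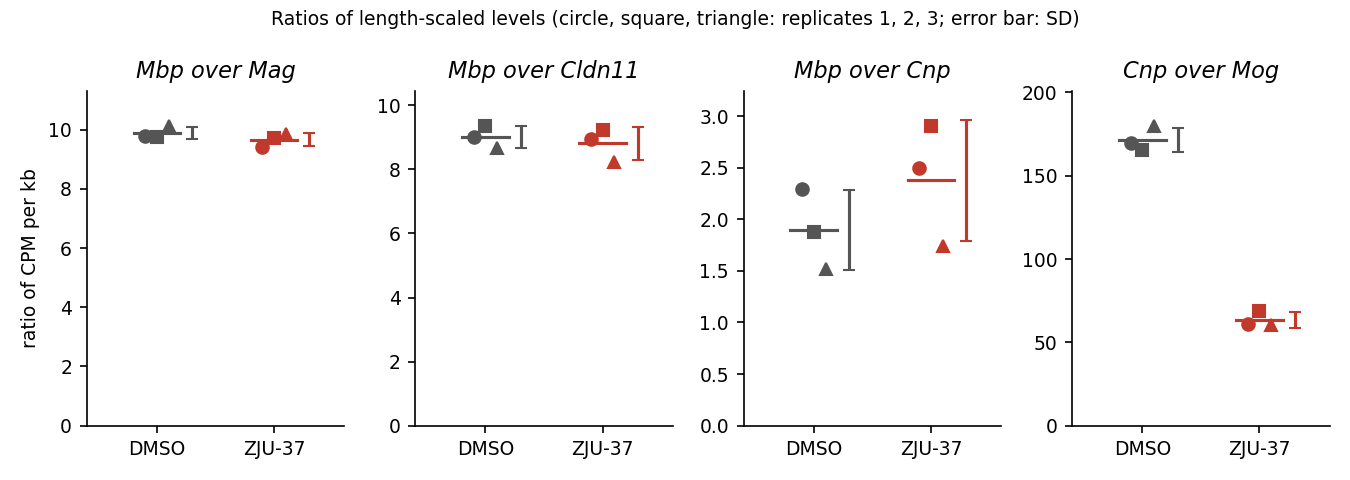
Ratios of CPM per kb between pairs of genes in each library, with bars for the group mean and error bars for the SD (n = 3). The ratio of Mbp to Mag stays between 9.41 and 10.1 in all 6 libraries, and that of Cnp to Mog falls into 2 separate ranges, 165 to 180 with DMSO and 60.5 to 68.9 with ZJU-37.

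The sequence upstream of the start was looked at for the genes with a RefSeq promoter entry (250 bases before to 50 after the start, assembly GRCr8), which were 7 of the 9, without Mog and Ermn. The letters CTGGCAC, a core of the site of MYRF, the regulator of myelin genes, were found on either strand in 4 of the 7 windows (Cnp, Mag, Mal and Opalin), where 4.61% of all 27457 windows held them. CTGGTAC, the other MYRF core searched, was found in 1 of the 7 (Cldn11), against 2.12% of all windows. ACAAAG, a core of SOX sites, stood in 4 of the 7 (Cnp, Mag, Mobp and Opalin), against 18.3%. CCAAT stood in 2 of the 7 (Mobp and Cldn11), against 37.7%, TATAAA in 0 of the 7, against 14.3%, and the E-box CANNTG in 6 of the 7, against 71.6%. In Mobp, ACAAAG occurred 8 times on the opposite strand, between 242 and 120 bases before the start. The window of Mbp held none of the searched letters and is not shown. The 3 windows below belong to the member that fell and to 2 of the abundant genes whose values moved in proportion, Cnp at chr10:86011254-86011553 (plus strand), Mag at chr1:95290995-95291294 (minus strand) and Cldn11 at chr2:114149490-114149789 (minus strand). Capitals mark the SOX core, both MYRF cores and the CCAAT box, on either strand, and E-boxes are not marked.
Cnp: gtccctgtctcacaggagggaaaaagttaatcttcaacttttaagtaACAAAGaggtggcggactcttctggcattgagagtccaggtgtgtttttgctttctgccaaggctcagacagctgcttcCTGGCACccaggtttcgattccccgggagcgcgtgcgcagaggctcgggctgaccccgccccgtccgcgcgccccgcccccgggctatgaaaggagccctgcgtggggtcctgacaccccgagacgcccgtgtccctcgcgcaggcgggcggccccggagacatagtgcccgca
Mag: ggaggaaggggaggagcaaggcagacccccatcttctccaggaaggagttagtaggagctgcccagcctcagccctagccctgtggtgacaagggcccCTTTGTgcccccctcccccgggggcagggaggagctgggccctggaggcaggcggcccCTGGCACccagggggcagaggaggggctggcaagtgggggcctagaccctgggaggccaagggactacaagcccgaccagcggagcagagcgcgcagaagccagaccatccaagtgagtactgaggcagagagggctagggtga
Cldn11: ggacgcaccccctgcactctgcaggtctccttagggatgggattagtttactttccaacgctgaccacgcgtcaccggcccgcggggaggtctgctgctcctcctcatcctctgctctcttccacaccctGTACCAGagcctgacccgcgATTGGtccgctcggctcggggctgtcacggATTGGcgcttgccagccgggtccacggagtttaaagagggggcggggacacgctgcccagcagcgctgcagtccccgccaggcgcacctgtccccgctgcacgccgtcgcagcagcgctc
In Cnp and Mag, the CTGGCAC core lies 124 and 94 bases before the start on the strand of the gene, and in Cldn11 the CTGGTAC core lies 120 bases before it on the opposite strand. Such matches of letters are a description of the windows and do not show that a factor binds there.

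Other genes of myelin and of the oligodendrocyte lineage were compared from 6 lists, of which 80 genes were tested. Without the block 27 were lower and 5 higher, and with it 49 were lower and 8 higher (edgeR, adjusted p-value under 0.05). Of all tested genes, 5.58% were lower and 9.43% higher without the block, and 15.9% and 16.2% with it. These shares are the background for each list that follows. The median log2 fold change of the 80 genes was -0.57. Of the 19 tested myelin membrane and junction proteins, 4 fell and 1 rose (11 and 1 with the block), with a median of -0.59. Nfasc, which encodes the neurofascins of the node and paranode, fell from 2508 to 734 CPM, by 1.77 on the log2 scale (SE 0.24, edgeR adjusted p = 0.00447). The tetraspanin gene Cd9 fell by 0.93, the lysophosphatidic acid receptor gene Lpar1 by 1.3 and the adhesion gene Cadm4 by 0.49 on the log2 scale. Jam3, which encodes a junctional adhesion molecule, rose by 0.32.

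Of the 15 myelin lipid and acetate enzymes, 2 fell and 0 rose (12 and 1 with the block), with a median of -0.44. Fa2h, which makes the 2-hydroxy fatty acids of myelin lipids, fell from 76.2 to 14.3 CPM, by 2.42 on the log2 scale (SE 0.24, edgeR adjusted p = 0.00142), and the sphingomyelin synthase gene Sgms1 fell by 0.44 on the log2 scale. Hmgcs1, an enzyme of cholesterol synthesis and the most abundant of this list per length, was at -0.31 on the log2 scale (edgeR adjusted p = 0.158, against 0.00264 in the blocked fit). Of the 16 myelin cytosol and cytoskeleton genes, 5 fell and 1 rose (8 and 1 with the block), with a median of -0.49. The deacetylase gene Sirt2 fell from 1811 to 487 CPM (log2 fold change -1.89, adjusted p = 0.00162, edgeR), and Tppp, Bin1, Padi2 and Sept7 fell by 1.21, 1.0, 0.86 and 0.60 on the log2 scale. Anln, whose product anillin also acts in cell division, rose by 1.2. Sept2, the most abundant of this list that did not pass, was at 0.05 on the log2 scale (edgeR adjusted p = 0.625).

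Of the 12 oligodendrocyte transcription regulators, 6 fell and 1 rose, with a median of -0.80. Myrf fell from 760 to 236 CPM (log2 fold change -1.69, SE 0.19, adjusted p = 0.00208, edgeR), and its CPM was 884, 768 and 629 with DMSO and 219, 294 and 195 with ZJU-37 in replicates 1, 2 and 3. Tcf7l2, Nkx2-2, Zfp488, Sox8 and Sox10 fell by 2.05, 1.74, 1.45, 0.99 and 0.61 on the log2 scale, and Olig1 rose by 0.64. Olig2, which marks the whole lineage, was at -0.07 on the log2 scale (edgeR adjusted p = 0.737). In the list of committed precursors and newly formed oligodendrocytes, 11 of the 12 genes fell and 0 rose, with a median of -1.97. The largest decrease among the 9 members was 1.36 on the same scale, and whether the lists differ was not tested. Gpr17, a receptor of committed precursors, fell from 357 to 33.1 CPM (log2 fold change -3.43, SE 0.20, adjusted p = 3.20e-04, edgeR), and Mycl, Bcas1 and Tns3 fell by 2.64, 2.18 and 1.6 on the log2 scale. The remaining gene, Rras2, was at -0.64 on the log2 scale (edgeR adjusted p = 0.124, against 0.0458 in the blocked fit). With the block 11 of the 12 fell again, but Rras2 was among them and Cnksr3, at -1.13 without the block and -1.12 with it, was not (edgeR adjusted p = 0.0389 and 0.126). Sirt2 and Tcf7l2 are each in 2 of these lists.

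The Schwann cell list held genes of peripheral myelin, and of its 8 tested genes 1 fell and 2 rose (2 and 4 with the block), with a median of 0.41. Ncmap had 0 counts in all 6 libraries. Egr2 and Fabp7, which are also expressed outside Schwann cells, rose by 2.14 and 0.43 on the log2 scale, and Prx fell by 1.33. Pmp22, the most abundant of this list per length among those that did not pass, was at 0.39 on the log2 scale (edgeR adjusted p = 0.0848, against 0.00155 in the blocked fit).

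**Figure D4:**
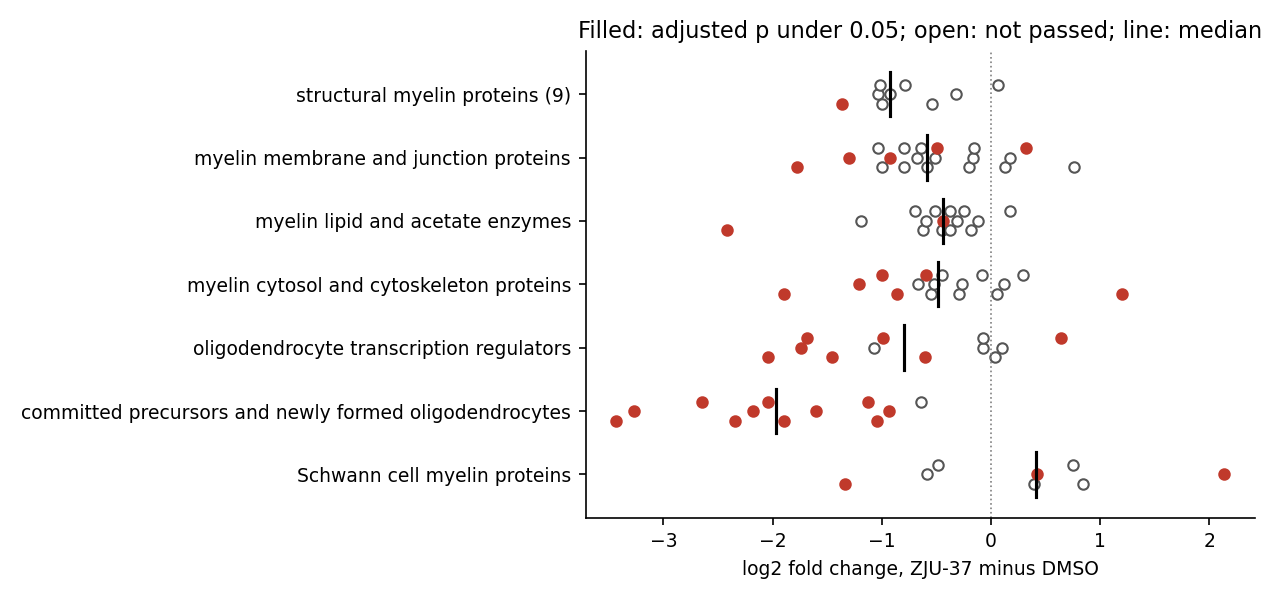
Fitted log2 fold changes of ZJU-37 minus DMSO for the 9 structural myelin protein genes and for the 6 other lists, with filled symbols for an adjusted p-value under 0.05 without the block, open symbols for the rest, and a line for the median. The medians run from -1.97 in committed precursors and newly formed oligodendrocytes to 0.41 in the Schwann cell list.

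The genes whose pattern was most like the mean of the 9 members were S1pr5, Tmeff2, Psme4, Kndc1 and Tyro3, ranked among 13884 genes that averaged 1 CPM or more, with Pearson's r between 0.988 and 0.993 over the 6 libraries. S1pr5, the sphingosine-1-phosphate receptor of oligodendrocytes, had 28.6, 18.1 and 12.3 CPM with DMSO and 14.4, 14.5 and 7.94 CPM with ZJU-37 in replicates 1, 2 and 3. Like Mobp, it was highest in DMSO replicate 1 and lowest in ZJU-37 replicate 3, with overlapping groups. The likeness is in shape and not in size, since the CPM of Psme4 stayed between 182 and 201 in all libraries. Of the 9 members themselves, Mobp correlated most with their mean (r = 0.98) and Mog least (r = 0.70).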

How the data were processed

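Poly-A RNA of 6 libraries was sequenced, 3 per group. The raw counts per gene were made by the authors with featureCounts 1.5.0, and their processing notes also name HISAT2 2.0.5 and StringTie 1.3.3b. The genome build is not given in the sources used here. The authors also deposited FPKM values, used here in an alternative only, and their own fold changes and p-values, which were not used.

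Genes were filtered with filterByExpr, scaled by TMM and tested over the whole table with edgeR 4.0.16 (glmQLFit robust, glmQLFTest, R 4.3.3), with Benjamini-Hochberg adjustment and 95% intervals. CPM per kb uses the gene length of the table. Log2 CPM for correlations had a prior count of 2. Tested on simulated counts, both fits gave the simulated directions, but the share of false calls was above the threshold of 0.05. In the simulation run it was higher with the replicate block. The simulated counts held no effect of replicate number, so they cannot show how the block performs where replicate numbers differ. Calls near the threshold, with or without the block, are less certain than their adjusted p-values say.

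The members and lists were chosen with earlier results of these data known. Of 139 list names, 134 were found, older names through the RefSeq table of GRCr8. Named were all members, up to 5 called genes per list and direction, the most abundant gene per length of a list that was not called, Pdgfra, and the 5 genes most like the members. Cspg4, Olig2, Rras2, Cnksr3, Sox10, Ncmap, Aldoc, Sox9, Cldn5 and Zfp57 were named after their values were seen. All 12 lists, markers included, are reported by their counts, and some genes that the rule would name are not reported here.

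The pairing is taken from the replicate numbers of the labels, which do not say what the numbers share. It was checked on the same counts that the blocked fit used. Deviations from a group mean cancel out within the group, so higher correlations of same-numbered libraries lower the others by arithmetic. Deviations from the group means correlated with r = 0.39, 0.31 and 0.33 for same-numbered libraries and with r between -0.27 and -0.01 for others (across 14670 genes, which are not independent). Replicates differed by a chi-square of at least 11.8 per degree of freedom, so none was counted as a duplicate.

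The counts of called genes, the median of the members and their 9 fold changes were recomputed with DESeq2 1.42.0, with limma-voom, with limma 3.58.1 on log2(FPKM + 1) and log2(FPKM + 0.1), with other scalings and filters, with the replicate block and without each library. Leaving out both libraries of a replicate number was added after the data had been seen.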

Additional observations from a re-analysis of the deposited data

How the results depend on the processing

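Cnp stayed lower, with an adjusted p-value of at most 0.0182, in all 19 alternatives. Members called lower numbered 1 without the block, 4 with the replicate block and 4 with DESeq2 (Cnp, Mbp, Mag and Cldn11), and, on 2 pairs with the block, 2, 6 and 2 without replicate 1, 2 and 3. In the 6 fits that left out 1 library it stayed at 1. Their median log2 fold change was from -1.24 to -0.26 over those 6 fits, with -0.26 without DMSO replicate 1 and -0.47 without ZJU-37 replicate 3. Over the same 6 fits Mog ran from -0.085 to 0.22 and Ermn from -0.75 to 0.094. Direction turned for Ermn (0.0026 without DMSO replicate 1, 0.094 without ZJU-37 replicate 3), Mog (-0.085 without DMSO replicate 3, -0.016 without ZJU-37 replicate 1) and Opalin (0.077 without replicate 1, with the block). Of the 80 genes of the other lists, 27 were lower and 5 higher, and with the replicate block 49 and 8 (47 and 10 lower and higher without replicate 1, 53 lower without replicate 2, 39 lower without replicate 3). With 1 library left out, 20 to 26 were lower and 2 to 5 higher, with 2 higher without DMSO replicate 2 and 3 without ZJU-37 replicate 1 or replicate 3. All genes under the threshold, in both directions, numbered 2201, 4705 with the replicate block and 2600 with DESeq2. They numbered 1306 to 1927 with 1 library left out (1306 without DMSO replicate 2, 1351 without ZJU-37 replicate 3). With the block they numbered 4885 without replicate 1, 3373 without replicate 2 and 2461 without replicate 3. Genes lower over the whole table were counted only with and without the block on all 6 libraries. The member counts of the other fits therefore have no such share beside them. The cause of the differences between fits was not tested. Counts were lowest for Opalin, Mal and Ermn, with as few as 13, 34 and 36 in a library.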
